A study of Mus musculus with 4 samples.

Results

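The genes described here are 41 genes of DNA repair and of the DNA damage checkpoint, chosen by name from 10 pathways among the 22225 protein-coding genes of the mouse annotation (GENCODE M1, genome build mm9). For each of them it was asked whether p53 was found bound nearby in hematopoietic progenitor lines, at what distance, in which class of response to irradiation, and on what sequence. A gene was counted as having a peak when the centre of a p53 peak lay within 10 kb of the transcription start site (TSS) of any of its annotated transcripts. By this rule 12 of the 41 genes had a p53 peak and 29 had none.

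The peaks come from chromatin immunoprecipitation sequencing (ChIP-Seq), in which DNA fragments bound by a protein are recovered with an antibody and sequenced. The series holds 4 libraries, 1 per condition. In 3 of them p53 was immunoprecipitated, from Ba/F3 cells that were untreated or had received 3 Gy of irradiation 3 h earlier, and from untreated HPC7 cells. In the other the antibody was against the histone mark H3K27ac, in irradiated Ba/F3 cells at the same dose and time. The mouse line Ba/F3 represents B cell progenitors and the mouse line HPC7 multipotent progenitors, both wild type for p53, and per the labels both stably expressed MYSM1 with a triple FLAG tag under puromycin selection. A single list of 7384 p53 peaks was deposited, each 100 bp wide and carrying a number that follows how much binding changed on irradiation, the strongest gain first. By number the peaks fall into those that gained binding (Group I, 89.9% of the list), then 160 with little change (Group II) and, with the highest numbers, 583 that lost binding (Group III). The list holds no tag count, height or p-value and does not name the library behind a peak. Depth and values per library were therefore not analysed here, and the lines were not checked on marker genes. With 1 library per condition, a gain or loss has no replicate error beside it. Intervals given below are 95% Wilson intervals and cover counting error over genes or peaks only.

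p53 is a transcription factor that is stabilized after DNA damage and binds DNA as a tetramer, on a response element built of a pair of similar decamers, each with a core of the form CNNG. It is best known for inducing genes of cell cycle arrest and apoptosis. A smaller set of the targets reported in human or mouse cells acts in repair itself. Among them are the damage sensor *Ddb2*, the nucleotide excision factor *Xpc* and the translesion polymerases *Polh* and *Polk*. Others are the sliding clamp *Pcna* and the ribonucleotide reductase subunit *Rrm2b*. A target known in human cells need not be one in the mouse. In blood progenitors p53 carries much, though not all, of the transcriptional response to irradiation. The p53 site is defined here as 2 adjoining decamers with at most 3 mismatches to the consensus in 20 positions and both CNNG cores intact, searched on both strands within 100 bp of the peak centre.

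The 12 genes with a peak were *Xpc*, *Ercc1* and *Ercc5* of nucleotide excision repair, *Polk*, *Polh*, *Rev1* and *Pcna* of translesion synthesis, *Msh6* of mismatch repair, *Rad50* of the break-sensing MRN complex, *Xrcc1* and *Parp1* of base excision and single-strand break repair, and the checkpoint kinase *Chek2*. They were 29.3% of the 41 genes (17.6 to 44.5%), and of all protein-coding genes 15.6% had a peak. A Group I peak lay near 8 of the 41 genes (19.5%, 10.2 to 34%), beside 12.5% of all protein-coding genes. A Group III peak lay near 4, namely *Xpc*, *Polh*, *Pcna* and *Parp1* (9.76%, 3.86 to 22.5%), beside 3.34% of all protein-coding genes. No gene of the 41 had a Group II peak (0 to 8.57%), and 0.558% of all protein-coding genes did. A peak that also held a p53 site lay near 3, *Ercc5*, *Msh6* and *Xrcc1* (7.32%, 2.52 to 19.4%), close to the 6.44% of all protein-coding genes. The intervals of the Group I and p53 site shares include the values over all genes, whereas those for any peak and for Group III lie above them. These separations depended on the rule. The interval for any peak included the value over all genes with peaks given to the nearest gene only (12 to 36.7% beside 12.3%), with peak numbers up to 3000 only (2.52 to 19.4% beside 6.31%) and within 50 kb (38.7 to 67.9% beside 40.5%). That for Group III included it within 1 kb (2.52 to 19.4% beside 2.6%) and within 50 kb (6.88 to 28.4% beside 7.12%). The interval for Group I in turn lay above the value over all genes within 1 kb (14.6%, 6.88 to 28.4%, beside 3.45%) and within 5 kb (17.1%, 8.53 to 31.3%, beside 7.87%). For a peak with a p53 site it lay above that value within 1 kb (2 genes, 4.88%, 1.35 to 16.1%, beside 1.11%). Within 5 kb it included that value (1.35 to 16.1% beside 3.62%).

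**Figure D1:**
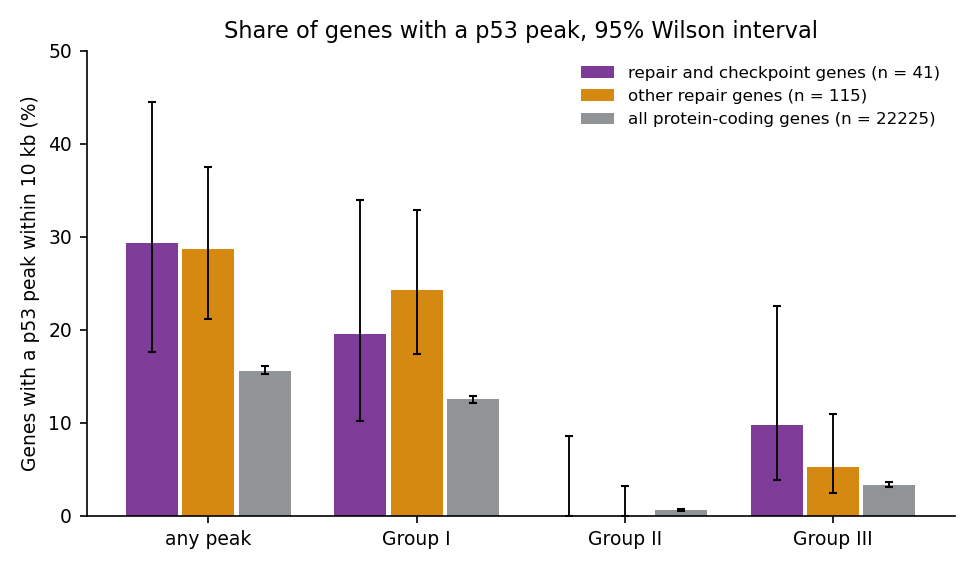
Share of genes (percent, bars from 0) with a p53 peak centre within 10 kb of a TSS, for any peak and for Groups I to III, in the 41 repair and checkpoint genes, in 115 other repair genes and in all 22225 protein-coding genes; error bars are 95% Wilson intervals over genes. The 41 genes stand at 29.3% for any peak against 15.6% over all genes, and at 0 for Group II.

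Several features of the genes themselves moved with these shares. Repair genes have promoters rich in CpG: 38 of the 41 (92.7%) had a CpG-rich TSS, against 51.7% of all protein-coding genes, and they had a median of 5 annotated TSSs per gene against 2. Among genes with a CpG-rich TSS, any peak was found at 11 of 38 repair and checkpoint genes (28.9%, 17 to 44.8%) and at 21.7% of all, a Group I peak at 7 of 38 (18.4%, 9.22 to 33.4%) and at 16.6% of all, and a Group III peak at 4 of 38 (10.5%, 4.17 to 24.1%) and at 5.62% of all. All 3 intervals included the value over all such genes. The part of CpG content and of TSS number in the shares was not tested.

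The peaks of the 41 genes lay close to their TSSs. Of the 12 genes, 9 had a peak within 1 kb (22% of the 41, 12 to 36.7%), and 6.15% of all protein-coding genes did. Over the 13 peaks at these genes the median distance to the TSS was 750 bp. The 9 Group I peaks had a median of 813 bp, with a range from 140 bp at *Rad50* to 9845 bp at *Msh6*, whereas over all 3083 pairs of a protein-coding gene and a Group I peak within 10 kb the median was 3604 bp. The 4 Group III peaks had a median of 98 bp, close to the 75.5 bp over all 754 such pairs. Within Group I the numbers of these peaks ran from 536 at *Msh6* to 5757 at the same gene, with a median of 3467, so they were spread over the whole Group. The Group III numbers ran from 7094 at *Xpc* to 7297 at *Polh*.

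**Figure D2:**
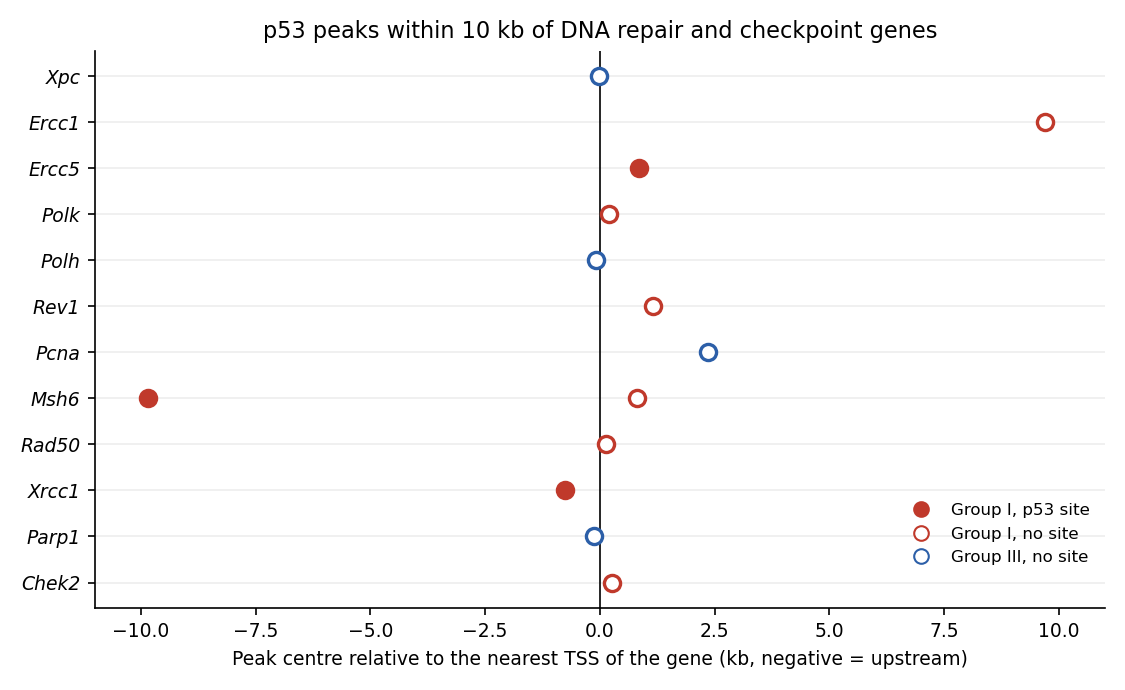
Signed distance (kb, negative upstream) from the nearest TSS of the gene (vertical line) to the centre of each of the 13 p53 peaks within 10 kb of a repair or checkpoint gene, with Group I in red, Group III in blue and filled points for peaks with a p53 site. The Group III peaks at *Xpc*, *Polh* and *Parp1* lie 14 to 120 bp upstream of the TSS, and the peaks at *Ercc1* and the farther one at *Msh6* lie near the limit of 10 kb.

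Nucleotide excision repair removes bulky lesions such as those left by ultraviolet light, by recognition of the distorted helix, unwinding by TFIIH and incision on both sides. Of its 8 genes listed here, 3 had a peak. *Ercc5*, which encodes the nuclease that cuts on the 3′ side of the lesion, had Group I peak 4042 at chr1:44205571-44205670, 843 bp downstream of a TSS in the first intron of 5 transcripts. Its p53 site had 3 mismatches and lay at chr1:44205598-44205617. *Xpc*, the lesion sensor of global genome repair, had Group III peak 7094 at chr6:91465843-91465942, centred 14 bp upstream of its only TSS, with no p53 site and with 69.2% G and C in the 201 bp around its centre. The divergent gene *Lsm3* starts 59 bp from that centre, so the centre lay between the starts of both genes, and the 100 bp of the peak covered the *Xpc* start. *Ercc1*, the partner of *Ercc4* in the nuclease that cuts on the 5′ side, had Group I peak 565 at chr7:19947163-19947262, 9690 bp downstream of a TSS and beyond the 3′ end of the gene. That peak lay 647 bp from a TSS of *Ppp1r13l*, inside that gene, and held no p53 site with or without a spacer. The same peak was also the nearest one to *Ercc2*, a TFIIH helicase, at 20147 bp. The lesion sensor *Ddb2* had no peak within 10 kb, and its nearest, peak 2000, was 84888 bp away and closer to *Madd*.

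Translesion synthesis lets a fork pass a damaged base with polymerases of low fidelity, and 4 of its 5 genes listed here had a peak, 2 in Group I and 2 in Group III. *Polk*, which bypasses bulky adducts on guanine, had Group I peak 4710 at chr13:97312184-97312283, 207 bp downstream of its TSS in the first intron of 2 transcripts. *Rev1*, the scaffold that brings the other polymerases to the lesion, had Group I peak 5353 at chr1:38185290-38185389 in its first intron, 1168 bp downstream of the TSS. *Polh*, which copies ultraviolet-induced thymine dimers correctly, had Group III peak 7297 at chr17:46339601-46339700, 76 bp upstream of the TSS and 154 bp from that of the divergent gene *Xpo5*. *Pcna*, the clamp on which these polymerases exchange, had Group III peak 7201 at chr2:132073498-132073597. It was centred 2359 bp downstream of a TSS of *Pcna* and beyond the 3′ end of that gene, 4 bp from the TSS of *5730494N06Rik*, so it lay at the start of another gene. None of the 4 peaks held a p53 site without a spacer. *Poli*, the remaining polymerase, had no peak within 10 kb, its nearest being 70771 bp away. *Rrm2b*, the subunit of ribonucleotide reductase that supplies nucleotides for repair outside S phase, had none either, with the nearest at 156679 bp.

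Mismatch repair corrects errors left by replication. *Msh6*, a subunit of the sensor that recognizes base mismatches, was the only gene of the 41 with more than 1 peak. Group I peak 536 at chr17:88375154-88375253 lay 813 bp downstream of the TSS in the first intron. It had no p53 site with adjoining decamers, and with a spacer of 1 base it had a pair of decamers with 3 mismatches. Group I peak 5757 at chr17:88364496-88364595 lay 9845 bp upstream, outside genes, and held a p53 site with 1 mismatch at chr17:88364520-88364539, the closest match of all 13 peaks. Its sequence is repeated in the genome: 1047 other p53 peaks had windows of similar sequence. *Pms2*, which acts downstream of the mismatch sensor, had no peak within 10 kb.

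In base excision and single-strand break repair, which replaces small base lesions and reseals nicks, 2 of 7 genes had a peak. *Xrcc1*, the scaffold for the ligation of single-strand breaks, had Group I peak 3467 at chr7:25331370-25331469, 750 bp upstream of its TSS. The p53 site there had 3 mismatches and lay at chr7:25331418-25331437, and the TSS of *2310033E01Rik* was closer, at 329 bp. *Parp1*, which senses strand breaks and marks them with poly(ADP-ribose), had Group III peak 7145 at chr1:182498917-182499016, 120 bp upstream of its TSS, with no p53 site and 70.1% G and C. *Ung*, the uracil glycosylase, fell just outside the limit: peak 1325 of Group I, which held a p53 site, was 10909 bp downstream of a TSS, and *Acacb* was closer to it, at 3618 bp.

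Double-strand breaks are sensed by the MRN complex, which activates the kinase *Atm*, and *Chek2* is the kinase that carries the signal on to p53 and to the cell cycle. *Rad50*, the structural subunit of MRN, had Group I peak 1814 at chr11:53520608-53520707, 140 bp downstream of a TSS in exon 1, in the 5′ UTR of 5 transcripts. *Chek2* had Group I peak 3092 at chr5:111269259-111269358 in its first intron, 272 bp downstream of its TSS and 512 bp from that of the divergent gene *Hscb*. Neither peak held a p53 site. The other 3 checkpoint kinases had no peak within 10 kb, the nearest being 70275 bp away at *Chek1*, 150129 bp at *Atm* and 357678 bp at *Atr*, which was the most distant of all 41 genes.

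No peak lay within 10 kb of the 3 genes of homologous recombination (*Brca1*, *Brca2*, *Rad52*), of the 5 of non-homologous end joining (*Xrcc4*, *Xrcc5*, *Xrcc6*, *Lig4*, *Prkdc*) or of the 3 of the Fanconi anemia pathway (*Fanca*, *Fancc*, *Fancd2*). These are the routes by which broken ends are rejoined from a template or directly, and by which crosslinks are removed. With so few genes the Wilson interval of a pathway is wide, and pathways were not compared with each other. Of the 29 genes without a peak, the nearest peak was in Group I for 25 and in Group III for 4. The nearest peaks after that of *Ung* were at *Ercc2* and at *Ercc3*, the latter 23385 bp away, and the most distant after that of *Atr* were at *Rad52*, 209630 bp, and at *Lig4*, 207718 bp. For 3 of the 29, *Ercc3*, *Ercc4* and *Xrcc4*, that peak had no protein-coding TSS closer than their own.

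**Figure D3:**
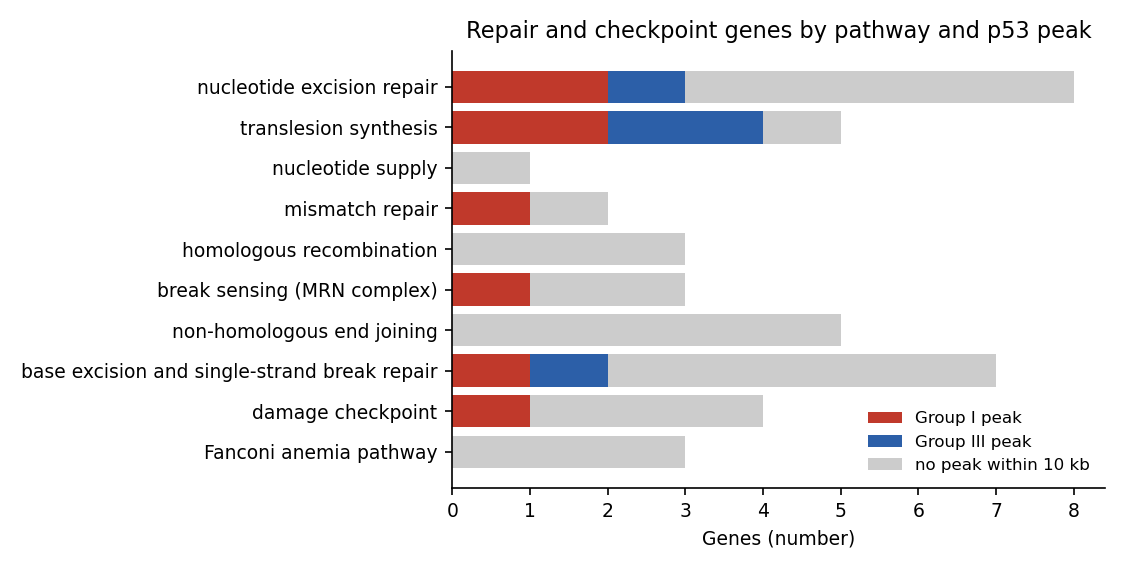
Number of the 41 genes with a Group I peak, with a Group III peak and with no p53 peak within 10 kb, by pathway. Translesion synthesis has 4 of 5 genes with a peak, nucleotide excision repair 3 of 8, and homologous recombination, end joining and the Fanconi anemia pathway none.

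The sequences of the Group I peaks that held a p53 site, and of the nearer *Msh6* peak, are shown to set the matches beside each other (mm9, plus strand). Capitals mark the p53 site in the first 3, and in the last each run of C, 2 letters A or T, and G, the core of the p53 consensus.
Ercc5 chr1:44205571-44205670: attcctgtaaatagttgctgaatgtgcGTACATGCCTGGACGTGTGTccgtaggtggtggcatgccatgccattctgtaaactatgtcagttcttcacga
Xrcc1 chr7:25331370-25331469: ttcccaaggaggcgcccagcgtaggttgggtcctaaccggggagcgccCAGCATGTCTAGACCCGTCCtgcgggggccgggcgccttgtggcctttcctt
Msh6 chr17:88364496-88364595: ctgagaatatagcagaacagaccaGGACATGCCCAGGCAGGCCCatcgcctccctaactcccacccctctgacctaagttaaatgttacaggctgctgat
Msh6 chr17:88375154-88375253: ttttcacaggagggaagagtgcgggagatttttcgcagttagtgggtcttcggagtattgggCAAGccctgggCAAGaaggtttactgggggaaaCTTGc

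Of the 9 Group I peaks at these genes, 3 held a p53 site (33.3%, 12.1 to 64.6%), and in 49% of the 2433 Group I peaks within 10 kb of any protein-coding gene. Allowing a spacer of up to 13 bases between the decamers raised the count from 3 to 5 of all 13 peaks, by *Msh6* and *Pcna*, which is 38.5% (17.7 to 64.5%), and 60.5% of all 3065 peaks near protein-coding genes held a site by this rule. The windows of *Chek2* and *Rev1* are shown as Group I peaks close to a TSS in which no p53 site was found, with capitals for the same core. *Chek2* has 2 such cores near the start of its window, and *Rev1* has 2 that lie far from each other.
Chek2 chr5:111269259-111269358: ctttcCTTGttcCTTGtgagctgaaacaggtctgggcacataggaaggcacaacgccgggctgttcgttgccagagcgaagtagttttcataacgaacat
Rev1 chr1:38185290-38185389: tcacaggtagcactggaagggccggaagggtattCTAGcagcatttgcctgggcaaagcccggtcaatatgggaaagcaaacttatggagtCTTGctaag

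None of the 4 Group III peaks held a p53 site (0 to 49%), and of all Group III peaks near protein-coding genes 1.12% did. They were rich in G and C, with a median of 69.7% in the 201 bp around the centre, against 52.7% in the 9 Group I peaks of these genes. Over all peaks near protein-coding genes the medians were close to these, 70.1% in Group III and 50.2% in Group I. The letters GGGGCGGGG, bound by SP1, a factor of CpG-rich promoters, were found with at most 1 mismatch on either strand at *Xpc*, *Polh* and *Parp1*, that is at 3 of 4, and at 85.8% of all Group III peaks near protein-coding genes. Among the Group I peaks of the repair genes 3 of 9 had them, against 13.1% of all Group I peaks near protein-coding genes. The motif of NRF1, another factor of such promoters, was found with at most 1 mismatch at *Polh* only, and at 31.8% of the Group III peaks near protein-coding genes. In windows of the same 201 bp around the 5′ ends of all 22225 genes, a p53 site was present in 0.805%, the SP1 letters in 39.8% and the NRF1 motif in 6.32%. The SP1 letters at *Xpc*, *Polh* and *Parp1* are thus common in promoters in general, whereas the *Pcna* window held neither these letters nor the NRF1 motif. The Group III windows are shown with the SP1 letters in capitals, which run together where matches overlap, and without the bases that belong to a UTR.
Xpc chr6:91465879-91465942: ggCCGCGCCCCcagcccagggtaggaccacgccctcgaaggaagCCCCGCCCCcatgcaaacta
Polh chr17:46339601-46339700: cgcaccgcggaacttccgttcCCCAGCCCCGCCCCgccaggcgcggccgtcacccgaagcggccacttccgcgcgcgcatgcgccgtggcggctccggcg
Parp1 chr1:182498917-182499016: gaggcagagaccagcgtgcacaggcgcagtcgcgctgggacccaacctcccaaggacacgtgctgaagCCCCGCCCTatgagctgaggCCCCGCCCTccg
Pcna chr2:132073544-132073597: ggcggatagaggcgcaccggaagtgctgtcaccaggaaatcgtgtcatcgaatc

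A peak within 10 kb of a repair gene need not belong to that gene. At 3 of the 13 peaks, those assigned to *Ercc1*, *Pcna* and *Xrcc1*, another protein-coding gene had a closer TSS, and at 7 of the 13 another TSS lay within 1 kb. Counting only peaks to which no other protein-coding gene was nearer, 9 of the 41 genes had a peak (22%, 12 to 36.7%) and 12.3% of all protein-coding genes, 6 had a Group I peak (14.6%) beside 9.98% of all, and 3 a Group III peak (7.32%, 2.52 to 19.4%) beside 2.4% of all. Farther out, 22 of the 41 genes (53.7%, 38.7 to 67.9%) had a peak within 50 kb, against 40.5% of all protein-coding genes, and 37 (90.2%) within 200 kb, against 75.1%. The median distance to the nearest peak was 40044 bp for the 41 genes and 73902 bp for all protein-coding genes.

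**Figure D4:**
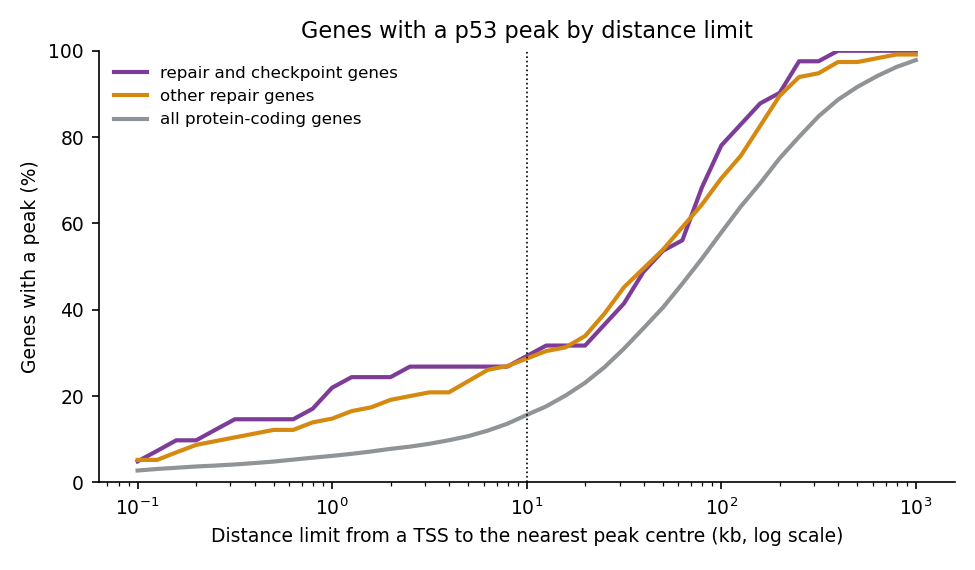
Cumulative share of genes (percent) whose nearest p53 peak centre lies within a given distance of a TSS (kb, log axis), for the 41 repair and checkpoint genes, 115 other repair genes and all protein-coding genes, with a dotted line at 10 kb. The 41 genes stand at 22% at 1 kb against 6.15% over all genes, and at 90.2% at 200 kb against 75.1%.

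Sequences that match the p53 site are common in the genome, and most were not under a peak. Within 10 kb of protein-coding TSSs, matches without a mismatch lay within 100 bp of a peak centre in 68.3% of 123 cases, those with 1 mismatch in 37% of 913, those with 2 in 10.6% of 5153 and those with 3 in 2.26% of 22251. Around the repair and checkpoint genes there were 77 matches at 35 of the 41 genes, and 3 of them were under a peak, the sites of *Ercc5*, *Xrcc1* and *Msh6* described above. No match was free of mismatches, and the only match with 1 mismatch was the one under the farther *Msh6* peak. Of 13 matches with 2 mismatches none was under a peak, which allows a share of up to 22.8%, and 12 of them were at genes without a peak. Of 63 with 3 mismatches 2 were under a peak (3.17%, 0.875 to 10.9%). Matches with 2 mismatches at 3 genes without a peak are shown with capitals for the CNNG cores.
Rrm2b chr15:37884606-37884625: agaCATGctggaaCATGact
Lig1 chr7:13865251-13865270: aggCATGtacaacCATGcct
Rad52 chr6:119864790-119864809: gggCTTGctctgcCATGtct

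The match at *Rrm2b* lay 278 bp downstream of a TSS, in the first intron of 7 transcripts and 6458 bp from the 5′ end of the gene. The match at *Lig1*, the ligase of replication and long-patch repair, lay 235 bp upstream of a TSS. It was in an intron of 6 transcripts, 2628 bp from the 5′ end of the gene. That at *Rad52*, which anneals single strands, lay 471 bp upstream of a TSS. It was in an intron of 9 transcripts, 12083 bp from the 5′ end of the gene. *Ddb2* had 1 match, with 3 mismatches, at chr2:91071717-91071736. The list of peaks does not tell whether tags were present at these matches below the calling threshold.

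**Figure D5:**
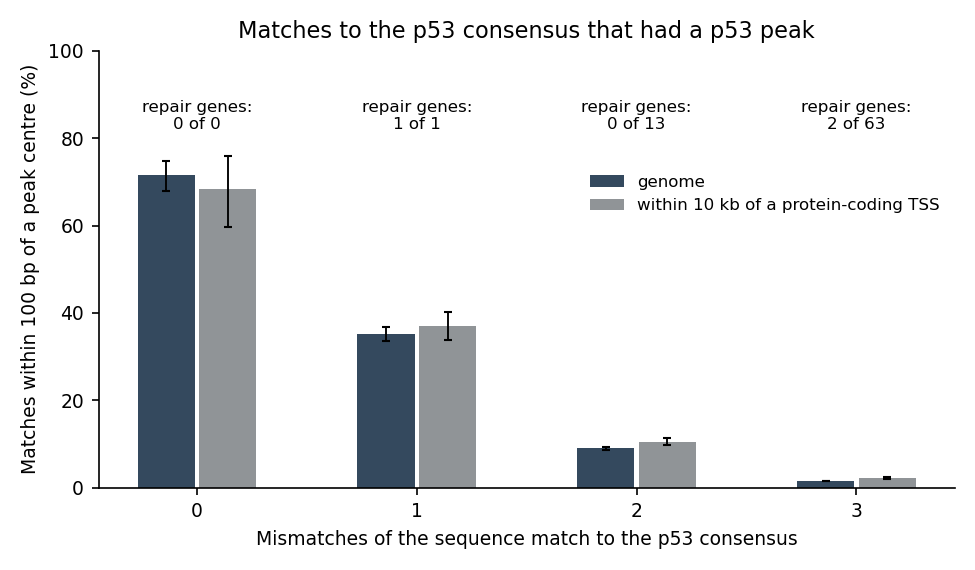
Share (percent, bars from 0) of sequences matching the p53 site that lie within 100 bp of a p53 peak centre, by number of mismatches, in the whole genome (dark bars) and within 10 kb of protein-coding TSSs (grey bars), with 95% Wilson intervals and the counts for the 41 repair and checkpoint genes written above. Near TSSs the share falls from 68.3% without a mismatch to 2.26% with 3, and of the 77 matches at repair and checkpoint genes 3 were under a peak.

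A further 115 repair genes were examined in the same way, 112 of them from the pathways above and 3 from the direct reversal of damaged bases, which holds none of the 41 genes. A peak lay within 10 kb of 33 (28.7%, 21.2 to 37.5%), a share close to that of the 41 genes. A Group I peak lay near 28 (24.3%, 17.4 to 32.9%, beside 12.5% of all protein-coding genes) and a Group III peak near 6 (5.22%, 2.41 to 10.9%, beside 3.34%). A peak with a p53 site lay near 12 (10.4%, 6.07 to 17.4%), an interval that includes the 6.44% of all protein-coding genes. Here the Group I interval lay above the value over all genes and the Group III interval included it, the reverse of the 41 genes at this limit. Of the 115 genes, 80.9% had a CpG-rich TSS. Among those, a Group I peak lay at 22 of 93 (23.7%, 16.2 to 33.2%), beside 16.6% of all genes with a CpG-rich TSS. Any peak lay at 27 of 93 (29%, 20.8 to 38.9%), beside 21.7% of all such genes. Both of these intervals included the value over all such genes. Over the 112 genes alone, 31 had a peak (27.7%, 20.2 to 36.6%). In nucleotide excision repair they were *Cul4a* and *Ddb1* in Group I and *Gtf2h5* in Group III, the nearest being *Gtf2h5*, a TFIIH subunit, at 19 bp. In translesion synthesis 1 of 9 had a peak, *Hltf*, in Group I at 9422 bp. Of the 5 other genes of nucleotide supply 4 had a peak: *Rrm1*, *Rrm2* and *Dut* in Group I, and *Samhd1*, a dNTP hydrolase, in Group III at 1 bp and in Group I at 8710 bp. *Rrm1* and *Rrm2* encode the ribonucleotide reductase of S phase, with peaks at 731 bp and 643 bp.

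The break repair pathways in which none of the 41 genes had a peak did have peaks at other genes. In homologous recombination *Rad51d*, *Xrcc2*, *Bard1* and *Recql5* had Group I peaks and *Palb2* and *Gen1* Group III peaks. The nearest was that of *Palb2*, which links *Brca1* to *Brca2*, at 16 bp. In end joining *Nhej1*, which aligns the ends for ligation, had a Group I peak at 896 bp, and *Dntt* had one farther off. In the Fanconi anemia pathway *Fancm* had a Group III peak at 1550 bp, which lay 112 bp from *Fkbp3*, and *Slx4* a Group I peak. In base excision repair *Mpg*, *Nthl1*, *Fen1* and *Tdp1* had Group I peaks, the nearest at 146 bp from *Mpg*, a glycosylase for alkylated bases. In the checkpoint *Hus1*, *Atrip*, *Rad1*, *Tipin* and *Trp53bp1* had Group I peaks and *Mdc1* a Group III peak that lay 91 bp from *Tubb5*. The nearest was that of *Hus1*, a subunit of the checkpoint clamp, at 2 bp. In direct reversal *Mgmt*, which removes methyl groups from guanine, had a Group I peak at 244 bp and *Alkbh3* one farther off. At 6 of the 36 peaks of these other genes, those of *Ddb1*, *Recql5*, *Gen1*, *Rad1*, *Mdc1* and *Fancm*, another protein-coding gene had a closer TSS.

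The p53 sites at these genes include closer matches than those at *Ercc5* and *Xrcc1*. Those of *Cul4a* and *Nhej1*, which had 1 mismatch, are shown with capitals for the CNNG cores. *Mgmt* had no p53 site with adjoining decamers, and its pair of decamers without a mismatch, set apart by a spacer of 11 bases, is shown beside them. All 3 are from Group I peaks within 1 kb of a TSS. At *Cul4a* that TSS is inside the gene, and the peak centre lay 34349 bp from the gene's 5′ end.
Cul4a chr8:13139942-13139961: gtgCATGtccgggCTAGcct
Nhej1 chr1:75092295-75092314: ggaCATGtctggaCTTGgtt
Mgmt, within 100 bp of the centre of chr7:144086489-144086588: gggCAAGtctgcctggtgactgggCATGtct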

How the data were processed

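Libraries for p53 (antibody 1C12) and H3K27ac were made from Ba/F3 and HPC7 cells, 1 per condition. Reads were aligned by the authors to mm9 using Bowtie 1.0.0, peaks were called using MACS 1.4.1 with input DNA as control (versions from the submitters' processing notes), and the authors deposited 1 list of peak positions and numbers. How peaks of several libraries were merged is not given in the sources used here. The H3K27ac signal was not analysed here.

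From that list, the distance from each peak centre to every annotated TSS (GENCODE M1) was computed, joining genes of 1 symbol on 1 chromosome. The p53 site, SP1 and NRF1 motifs were searched in 201 bp of NCBIM37 sequence. A CpG-rich TSS had at least 55% G and C and an observed to expected CpG ratio of at least 0.6 in 501 bp. Peaks were called similar when their windows shared at least 5 words of 16 bases. The searches were tested on simulated data. No test between groups was run, since there are no replicates, and the intervals are 95% Wilson intervals. Sequences were read with samtools 1.23.1 and pysam 0.24.0, values computed with SciPy 1.17.1 and NumPy 2.4.6 in Python 3.11.15, and plots drawn with matplotlib 3.10.9.

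The 41 genes, the 115 other genes and the motifs were chosen with earlier results of these data known. Named genes are all with a peak within 10 kb, of the 41 without one the 3 with the nearest and the 3 with the farthest peak, and genes with a closer TSS, and some of the other genes are counted but not reported here by name. Other genes without a peak, and the genes whose sites are printed, were named after their values were seen. Alternatives were other distance limits, TSS sets, peak subsets and site definitions. The comparisons by CpG content, without similar peaks, by nearest gene and without direct reversal, and the distance limits for Group II, were added after seeing the data.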

Additional observations from a re-analysis of the deposited data

How the results depend on the processing

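Of the recomputed counts, 30 stayed within 1.5 times the reported count and 10 did not. Within 50 kb, 22 of the 41 genes had any peak (53.7%, beside 40.5% of all protein-coding genes), 18 a Group I peak (43.9%, beside 36.3%) and 2 a Group II peak (4.88%, beside 1.55%), and 62 of the 115 other genes had a peak. With peak numbers up to 3000 only, 3 of the 41 genes had any peak (7.32%), 3 a Group I peak, and 12 of the other genes a peak, beside 6.31% of all protein-coding genes. Within 1 kb, 17 of the other genes had a peak. With at most 2 mismatches 1 of the 13 peaks held a p53 site, and with a spacer allowed 5 did, beside 813 and 1855 of the 3065 peaks near protein-coding genes. The counts for any peak at the 41 genes were 9 within 1 kb, 11 within 5 kb, 11 with protein-coding TSSs or the gene's 5′ end only, 12 without similar peaks and 9 by nearest gene. Of all 22225 genes, 1367, 2382, 3210, 2917, 2836 and 2732 had a peak by these rules, in the same order. No paired analysis was possible because each condition had 1 library. The depth of the libraries was not analysed here, so a gene without a peak cannot be told from a gene whose peak was missed.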

Other observations

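The farther *Msh6* peak belonged to a large set of p53 peaks of similar sequence. Of the 7384 peaks, 1010 (13.7%) had at least 900 others with a similar window, and 94.2% of these held a p53 site. Such a peak lay within 10 kb of 1 of the 41 genes (2.44%), of 4 of the 115 other repair genes (3.48%), namely *Hltf*, *Bard1*, *Slx4* and *Alkbh3*, and of 190 of all protein-coding genes (0.855%). The sites at *Hltf*, a fork remodeler, and at *Alkbh3*, an enzyme of direct reversal, on different chromosomes, were the same 20 bases, shown with capitals for the cores.
Hltf chr3:19948377-19948396 and Alkbh3 chr2:93853907-93853926: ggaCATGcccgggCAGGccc

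The protein of *Trp53bp1* binds chromatin at double-strand breaks and was first found as a partner of p53. The gene had 20 annotated TSSs, against a median of 2 over all protein-coding genes. It had 3 Group I peaks, at 351 bp, 5441 bp and 6850 bp from the nearest of these TSSs. In the same order they lay 50526 bp, 13939 bp and 6850 bp from the 5′ end of the gene. The last 2 peaks held a p53 site with 2 mismatches each, and 16 and 5 other p53 peaks had windows similar to theirs.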
